A study of Homo sapiens with 10 samples.

Results

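Chromatin at 9 genes of the Wnt pathway and of colorectal cancer was described in the human cell line HCT116, which was derived from a colorectal carcinoma and is known to carry activating mutations in CTNNB1 and PIK3CA and an intact APC. The genes were given by name: MYC, CTNNB1, APC, AXIN2, TCF7L2, LGR5, ASCL2, RNF43 and PIK3CA, 9 of 19821 protein-coding genes on chromosomes 1 to 22 and X. CUT&Tag, in which an antibody directs a transposase to cut and tag the DNA around its target, was done on unmodified (wild type) cells with antibodies against POLR1A (3 samples), POLR2A (3 samples), H3K9me3 (3 samples) and H3K4me3 (1 sample). POLR1A and POLR2A are the largest subunits of RNA polymerases I and II, H3K4me3 marks active promoters and H3K9me3 marks heterochromatin. Each target had 1 peak list, so spread between replicates cannot be given, and presence, position and fold enrichment are descriptions without a test. A peak was assigned to a gene end if it shared a base with the window of 1 kb on either side of the annotated start or end, and to the body if it shared a base with the span between them. Fold enrichment is the authors' linear ratio for a peak, as the peak list gives it, and was compared within a list only.

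In Wnt signalling a ligand at the cell surface stops a destruction complex, scaffolded by APC and axin proteins, from marking beta-catenin for degradation. Beta-catenin, the product of CTNNB1, then enters the nucleus and binds TCF and LEF factors such as TCF7L2 to switch on target genes, among them MYC, AXIN2, LGR5, ASCL2 and RNF43. In the intestine this pathway maintains the stem cells of the crypt, and its activation is the usual first step of colorectal cancer. PIK3CA encodes the catalytic subunit of a phosphoinositide 3-kinase and is a driver outside the Wnt pathway.

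The lists on chromosomes 1 to 22 and X held 3812 POLR1A, 19997 POLR2A, 17181 H3K4me3 and 16414 H3K9me3 peaks, and the read depth behind them is unknown. Of 6 epithelial marker genes, EPCAM, KRT19, CDH1, KRT8 and KRT18 had both POLR2A and H3K4me3 at an end, while VIL1 had neither. Among 5 fibroblast markers the only such peak was H3K4me3 at COL1A1, and among 5 leukocyte markers it was a POLR2A peak at CD14 with a fold enrichment of 2.75.

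The promoters over which these peaks lay differed in sequence. The 250 bases before 5 annotated start sites are shown, 5′ to 3′ on the strand of the gene, because each of these stretches lies under a POLR2A peak in whole or in part. A further stretch, before the start site annotated for PIK3CA, shared 49 bp with a POLR2A peak and is not printed. That start site lies 231 bp inside the gene. The sequences are from RefSeq, build GRCh38.p14: CTNNB1 at chr3:41199255-41199504, the upstream promoter of APC at chr5:112707248-112707497, its inner promoter at chr5:112737635-112737884, TCF7L2 at chr10:112949997-112950246 (all on the plus strand) and RNF43 at chr17:58417535-58417784 (minus strand). Capitals mark GC boxes (GGGCGG or, on the other strand, CCGCCC) and an E-box (CACGTG).
CTNNB1: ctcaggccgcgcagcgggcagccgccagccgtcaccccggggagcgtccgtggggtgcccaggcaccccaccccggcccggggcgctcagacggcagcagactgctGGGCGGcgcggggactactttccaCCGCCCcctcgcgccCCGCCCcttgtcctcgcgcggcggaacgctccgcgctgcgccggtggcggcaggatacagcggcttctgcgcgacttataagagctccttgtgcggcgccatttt
APC, upstream: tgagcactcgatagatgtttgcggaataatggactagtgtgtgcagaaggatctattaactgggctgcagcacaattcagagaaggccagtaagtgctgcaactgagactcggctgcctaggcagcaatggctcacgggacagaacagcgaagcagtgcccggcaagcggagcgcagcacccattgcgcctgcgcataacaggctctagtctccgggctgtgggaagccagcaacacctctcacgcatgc
APC, inner: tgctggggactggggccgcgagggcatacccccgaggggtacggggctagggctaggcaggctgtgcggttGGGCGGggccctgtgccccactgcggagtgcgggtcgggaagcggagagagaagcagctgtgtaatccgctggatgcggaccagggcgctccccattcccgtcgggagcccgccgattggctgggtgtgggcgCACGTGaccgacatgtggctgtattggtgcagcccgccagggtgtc
TCF7L2: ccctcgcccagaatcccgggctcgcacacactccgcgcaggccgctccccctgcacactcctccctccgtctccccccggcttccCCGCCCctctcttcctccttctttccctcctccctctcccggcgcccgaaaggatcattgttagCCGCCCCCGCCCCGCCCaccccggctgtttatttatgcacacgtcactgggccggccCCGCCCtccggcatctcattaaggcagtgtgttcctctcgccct
RNF43: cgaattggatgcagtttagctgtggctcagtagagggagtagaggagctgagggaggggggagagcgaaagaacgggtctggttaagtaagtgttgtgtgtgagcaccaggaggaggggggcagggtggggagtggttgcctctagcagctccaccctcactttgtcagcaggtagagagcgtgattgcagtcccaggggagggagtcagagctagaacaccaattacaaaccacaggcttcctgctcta

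The TCF7L2 stretch held 5 GC boxes, of which 3 lie in 1 unbroken cluster, and that of CTNNB1 held 3. The inner APC promoter held 1 GC box and 1 E-box and the PIK3CA stretch 1 GC box, whereas none of the motifs searched was present in the upstream APC promoter or in RNF43. Over 22132 promoters of protein-coding genes, 53.7% held a GC box in the same 250 bases and 7.37% the E-box. The core of the TCF and LEF site (CTTTGA or TCAAAG, in 9.64% of promoters) and the TATA box (TATAAA or TTTATA, in 9% of promoters) were in none of these 6 stretches. This holds for these exact strings only. Close variants were not searched, and the CTNNB1 stretch reads tataag and the RNF43 stretch ctttgt. Windows of 300 bases, the 250 before the start and the first 50 after it, were annotated at 9 start sites of the 5 genes with promoter entries. POLR2A was in 6 of these 9 windows (33.2% of 22132 windows of protein-coding genes), H3K4me3 in 5 (46.6%), POLR1A in 1 (8.68%) and H3K9me3 in 0 (1.30%). All 5 genes had POLR2A and H3K4me3 at an end, and AXIN2, LGR5 and ASCL2, without such peaks, had no promoter entry. The counts for POLR2A and H3K4me3 were thus largely set by which genes had entries. The ratio of observed to expected CpG dinucleotides ran from 0.988 at CTNNB1, 0.92 at TCF7L2 and 0.842 at PIK3CA, through 0.722 and 0.606 at the inner and upstream promoters of APC, to 0.231 at RNF43. RNF43 thus held 4 CpGs in 250 bases. Among 7350 promoters with a POLR2A peak the median ratio was 0.851, and 80 (1.09%) had a lower value than RNF43.

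At their ends, 6 of the 9 genes had a POLR2A peak, against 41.3% of protein-coding genes, and the same 6 genes had H3K4me3, against 54.6%. These were CTNNB1, APC, TCF7L2, RNF43, MYC and PIK3CA. TCF7L2 alone had POLR1A (1 of 9, against 11.2% of protein-coding genes), and none had H3K9me3 (0 of 9, against 2.70%). AXIN2, LGR5 and ASCL2 had no peak of any list at an end, as had 42.8% of protein-coding genes. All are targets of the pathway, but so are MYC and RNF43, which had POLR2A and H3K4me3 there. H3K4me3 peaks in AXIN2 and LGR5 lay 1214 and 1052 bp from an end, just beyond the window of 1 kb. The POLR1A count is a share near the background, and a background as low as that of H3K9me3 leaves little to read in a count of 0. Among pairs and larger combinations, the commonest, POLR2A with H3K4me3 and neither of the other targets, was found at MYC, CTNNB1, APC, RNF43 and PIK3CA and at 28.6% of all protein-coding genes.

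**Figure D1:**
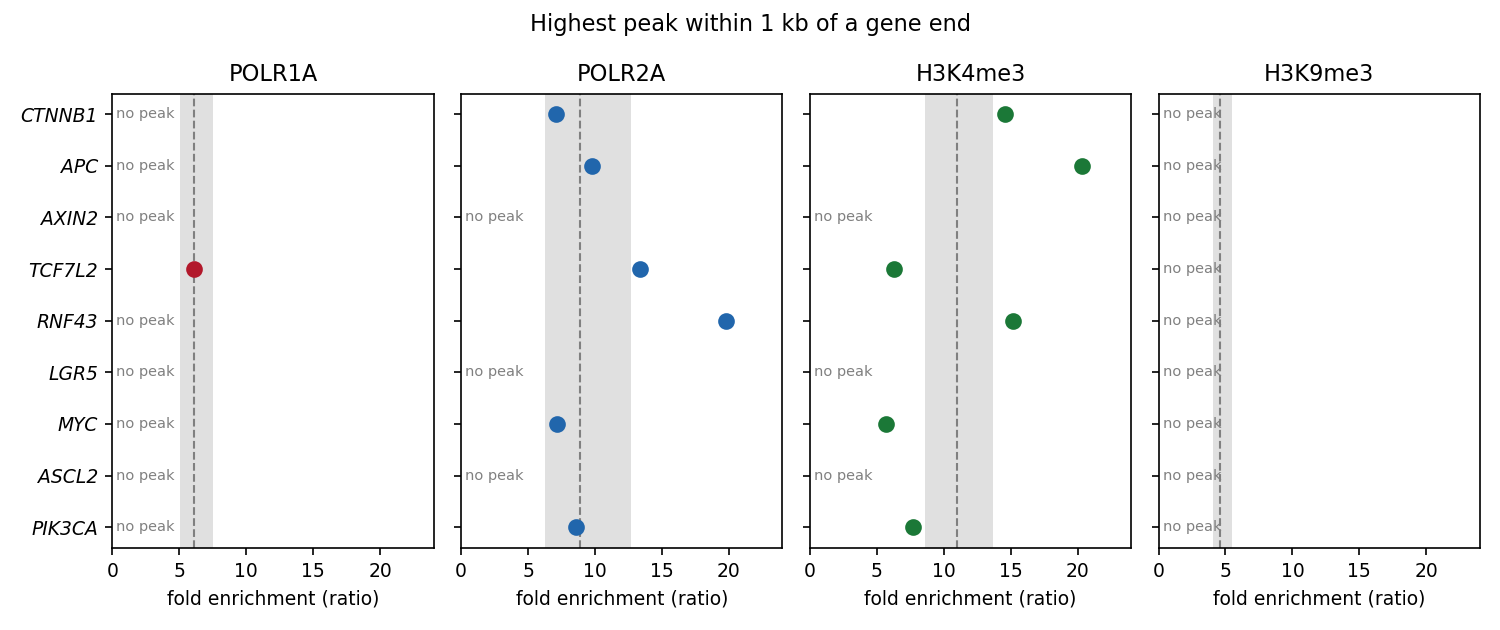
Highest fold enrichment (linear ratio, x axis) of a peak within 1 kb of either end of each gene (rows), in 1 panel per peak list. Points are genes, grey bands span the middle 50% of protein-coding genes that have the target at an end and dashed lines their median; RNF43 leads for POLR2A at 19.8, APC for H3K4me3 at 20.3, and TCF7L2 is the 1 gene with POLR1A, at 6.07.

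CTNNB1, which encodes beta-catenin, spans 40.9 kb of chromosome 3 (41199505 to 41240443). Its POLR2A peak (41199356 to 41199588) had a fold enrichment of 7.08, with the summit 7 bp inside the annotated start. The stronger of its H3K4me3 peaks (41199024 to 41199795) contained the whole POLR2A peak and had a value of 14.6, above that of 81.5% of protein-coding genes with H3K4me3 at an end. The POLR2A value was above that of 33.6% of genes with POLR2A, so CTNNB1 paired a strong mark with a polymerase peak below the median of 8.87. A weaker H3K4me3 peak (4.04) began 571 bp inside the gene, and no further peak of any list lay in the body.

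APC, the scaffold of the destruction complex, spans 139 kb of chromosome 5 (112707498 to 112846239) and had peaks at both of its annotated promoters, 30.4 kb apart. At the upstream promoter, the POLR2A peak (112707385 to 112707786) had a fold enrichment of 9.78 and the H3K4me3 peak (112707385 to 112708391) one of 20.3. That H3K4me3 value ranked 161 among the 17181 peaks of its list, and 129 of 10832 protein-coding genes with the mark at an end had a higher one. At the inner promoter, which lies in the gene body, POLR2A (112737583 to 112737938) was at 7.46 and H3K4me3 (112737540 to 112737939) at 10.2. The weaker peaks thus lay at the inner promoter in both lists. The upstream H3K4me3 peak reached 1007 bp, mostly downstream of the start, whereas the inner one was 400 bp wide and ended close to its start site. Of 1373 genes with annotated promoters at least 10 kb apart, 77 (5.61%) had POLR2A and H3K4me3 in each of 2 such promoter windows.

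AXIN2, an axin scaffold and a feedback target of the pathway, spans 33.1 kb of chromosome 17 (65528563 to 65561648). Its 1 peak was of H3K4me3 (65559337 to 65560434), 1098 bp wide with a fold enrichment of 7.7, and lay inside the gene 1214 bp from the high-coordinate end, where transcription of this minus-strand gene is known to begin. It therefore fell just outside the window of 1 kb. The nearest POLR2A peak to a gene end was 26.7 kb away (4.98) and the nearest POLR1A peak 28.2 kb away (4.92). AXIN2 thus carried the promoter mark without a peak of either polymerase.

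RNF43, a ubiquitin ligase that removes Wnt receptors from the membrane, spans 65 kb of chromosome 17 (58352500 to 58417534) on the minus strand and had the strongest POLR2A peak of the 9 genes. At its 5′ end this peak (58417529 to 58417835) had a fold enrichment of 19.8, ranked 267 of 19997, and its summit lay 164 bp upstream of the start site. The H3K4me3 peak there (58417396 to 58417812) had a value of 12.1 and was 417 bp wide. The strongest polymerase peak thus lay on the CpG-poor promoter printed above, under an H3K4me3 peak narrower than most, since 20.9% of that list were narrower still. The other end also carried POLR2A (12) and H3K4me3 (15.2), on peaks that lay within 1 kb of an end of SUPT4H1, an elongation factor gene, so these values need not belong to RNF43. H3K4me3 at both ends was found in 2.84% of 17298 protein-coding genes of at least 4 kb. A further pair of POLR2A peaks lay inside the gene, with summits 25669 and 22924 bp from the 5′ end, with values of 6.69 and 6.32. H3K4me3 (3.73) overlapped the former and not the latter, and no peak was found at the second promoter annotated in the body.

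LGR5, the receptor that marks crypt stem cells, spans 147 kb of chromosome 12 (71439129 to 71586310) and had no peak of either polymerase. Its 1 H3K4me3 peak (71440181 to 71440556) was weak, with a fold enrichment of 4.88 and a −log10 q of 3.96, and began 1052 bp inside the gene, just beyond the window. Outside the gene, an H3K9me3 peak (71436084 to 71436757) ended 2372 bp before the start. Its fold enrichment of 6.49 was above that of 89.6% of the H3K9me3 list. This H3K9me3 peak and the H3K4me3 peak both overlap another annotated gene, LOC124902962, so they need not belong to LGR5. LGR5 was the gene among the 9 with H3K9me3 nearest to an end, and the next nearest was 28.1 kb from AXIN2, with a value of 10.5. The nearest POLR2A peak lay 36.2 kb from LGR5.

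ASCL2, a transcription factor gene of crypt stem cells that spans 2.09 kb of chromosome 11 (2268498 to 2270588), had no peak in any list at its ends or in its body. The nearest POLR2A peak (2.78) was 43.4 kb away, the nearest H3K9me3 peak 60.7 kb, the nearest H3K4me3 peak 89 kb and the nearest POLR1A peak 1152 kb. ASCL2 was thus the 1 gene of the 9 without H3K4me3 anywhere in the body, where 8 of 9 had it, against 58.6% of protein-coding genes.

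MYC, a transcription factor gene and a long-known Wnt target, spans 7.52 kb of chromosome 8 (127735434 to 127742951) and held 3 POLR2A peaks and 2 H3K4me3 peaks. The POLR2A peak over the start (127735255 to 127735595) had a fold enrichment of 7.17 with its summit 49 bp before the start. Others lay 754 bp inside the gene (4.26) and 606 bp before the far end (6.36). MYC and RNF43 therefore had POLR2A at both ends, which 2.55% of protein-coding genes of at least 4 kb had, and at MYC no other annotated end lay within 1 kb of these peaks. Both H3K4me3 peaks were low, and 1 was broad. The one on the start (127735250 to 127735779) was 530 bp wide and had a value of 2.26, lower than all but 0.326% of its list, and the one within the gene (127736053 to 127738855) had 5.72 and a width of 2803 bp, which ranked 18 among 17181. H3K4me3 at MYC thus extended far into the gene at a height that only 5.81% of genes with the mark fell below.

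PIK3CA spans 92 kb of chromosome 3 (179148126 to 179240093). Its POLR2A peak (179147930 to 179148155) had a fold enrichment of 8.58 with the summit 8 bp before the gene start. H3K4me3 peaks lay over the start (179147616 to 179148210, 7.71) and 429 bp inside it (179148555 to 179149522, 6.36). PIK3CA-DT, a divergent non-coding transcript, has an end within 1 kb of all of these, so they may belong to either gene. No further peak lay in the body.

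**Figure D2:**
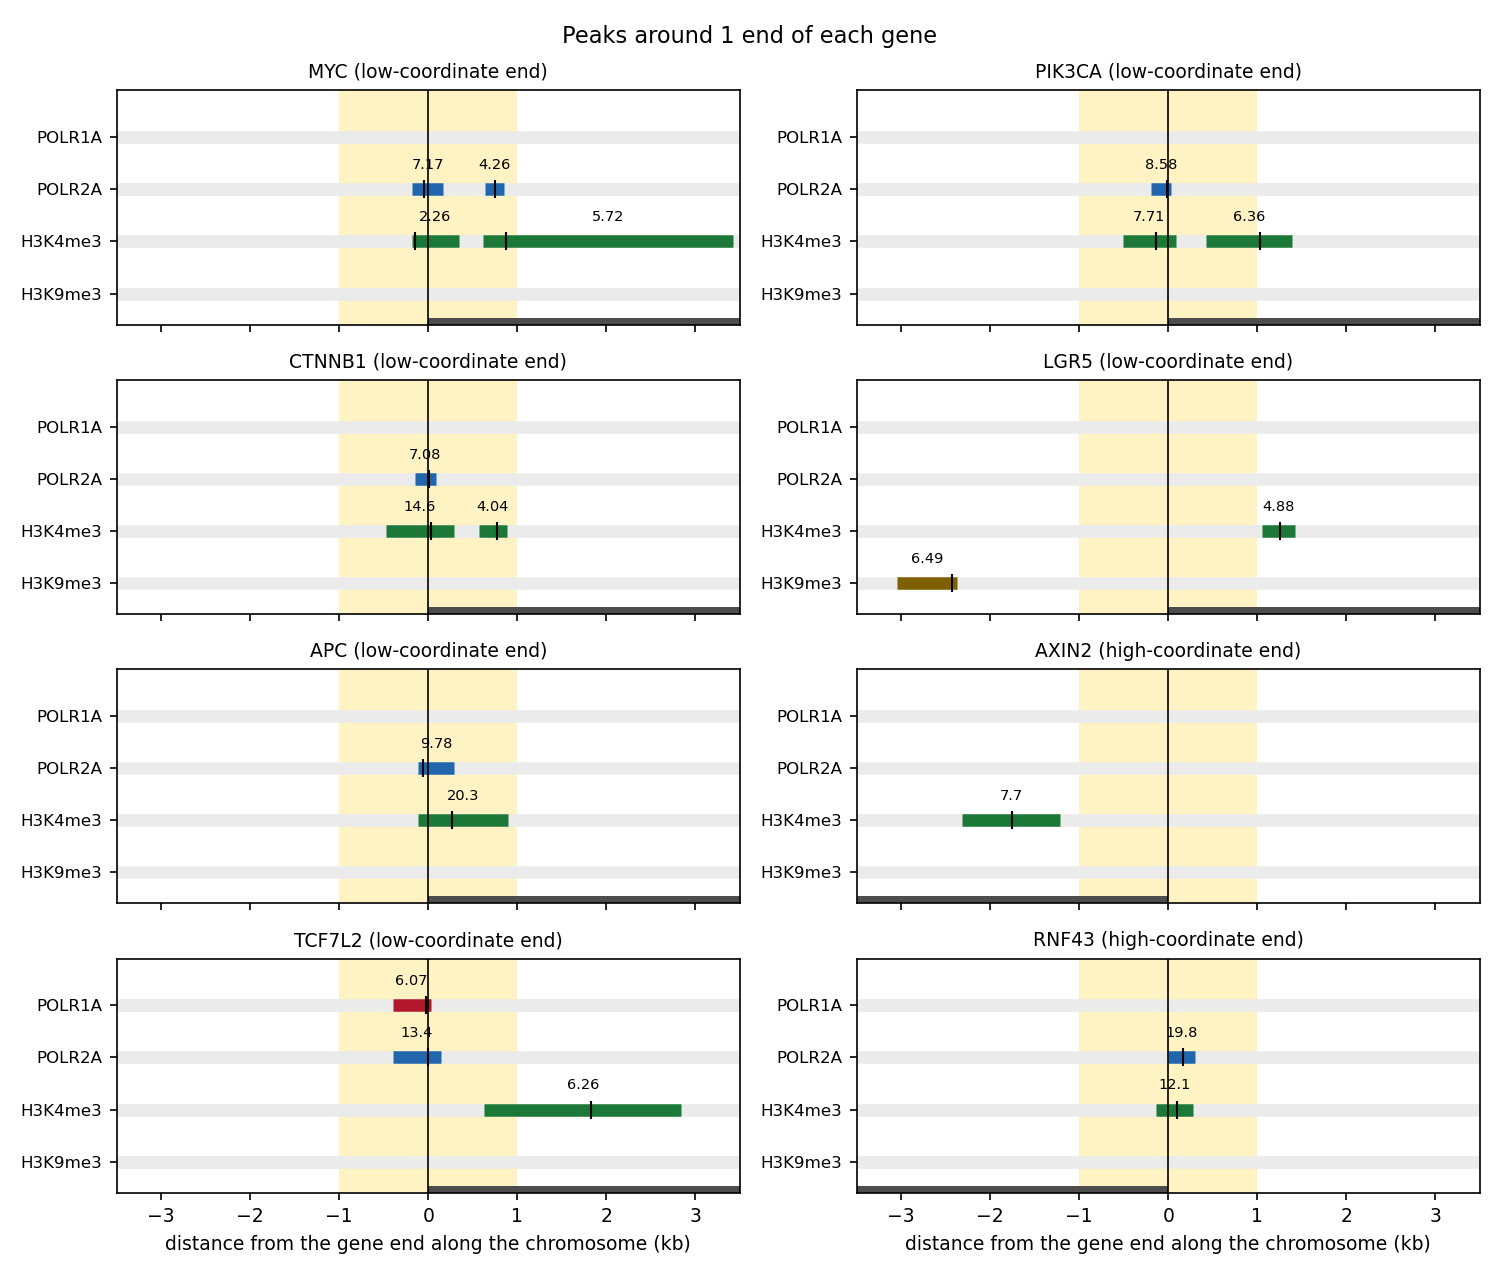
Peaks (coloured bars, 1 row per list) around 1 end of 8 genes, by distance from that end along the chromosome in kb, with black ticks at summits and fold enrichment above each bar. Yellow marks 1 kb on either side and the dark strip at the base the gene; the H3K4me3 peaks of LGR5 and AXIN2 lie 1052 and 1214 bp from it, beyond the window, and that of TCF7L2 lies apart from its polymerase peaks.

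TCF7L2, the DNA-binding partner of beta-catenin in the intestine, spans 217 kb of chromosome 10 (112950247 to 113167678) and was the 1 gene of the 9 with peaks of both polymerases. At its start the POLR1A peak (112949845 to 112950275) had a fold enrichment of 6.07 and the POLR2A peak (112949845 to 112950395) one of 13.4. Both began at the same base, the POLR1A peak lay wholly inside the POLR2A peak, and the summits were 15 bp apart, 24 and 9 bp before the start. The POLR1A value sat at the median of the 2213 protein-coding genes with POLR1A at an end (6.08). Its −log10 q was 4.71, so with a minimum of 5 it was lost and 0 of the 9 genes had POLR1A at an end. An uncharacterised gene, LOC124902502, has an end within 1 kb of both peaks and of the H3K4me3 peak described next. These peaks need not belong to TCF7L2.

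H3K4me3 at TCF7L2 did not touch these polymerase peaks. The mark (112950873 to 112953091) began 626 bp inside the gene, had its summit 1.82 kb inside it, and was 2219 bp wide at a fold enrichment of 6.26. By width it ranked 156 of 17181 peaks. Of POLR2A peaks at protein-coding gene ends 12.3% had no overlap with H3K4me3, and of POLR1A peaks there 3.96%. At the other 5 genes with POLR2A over the 5′ end, H3K4me3 covered all or most of that peak, from 226 bp at PIK3CA to 402 bp at APC.

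In gene bodies, ends included, POLR2A was found in 6 of the 9 genes (against 46.1% of protein-coding genes), POLR1A in 1 (against 10.5%) and H3K9me3 in 0 (against 13.6%). TCF7L2 held 17 POLR2A peaks, 3 POLR1A peaks, 2 H3K4me3 peaks and no H3K9me3 peak. No other protein-coding gene held as many POLR2A peaks. The next were PTPRN2 with 16 in 1049 kb and RPTOR with 15 in 422 kb. Per length TCF7L2 had 7.82 POLR2A peaks per 100 kb, and no gene of at least 100 kb (3350 genes, median 0.52) was denser. LGR5 and APC, the other genes of the 9 that long, held 0 and 2. Of these 3 long genes 2 thus had POLR2A in the body (63.3% of all long genes), 3 had H3K4me3 (66.2%), 1 had POLR1A (15.0%) and 0 had H3K9me3 (42.3%).

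Many of these peaks were weak. Of the 16 POLR2A peaks in TCF7L2 beyond its start, 4 reached a −log10 q of 5 and 9 were under 2, with a median fold enrichment of 3.98. Counting only peaks of at least 5, TCF7L2 had 5 in all and 11 genes had more. With each list cut to the 3812 strongest it had 3, and 1 gene, GPHN, had more. The high count thus rested on weak peaks, while the strong ones were fewer and grouped.

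The 4 strong inner POLR2A peaks lay between 94.4 and 143 kb from the start. The peak 124 kb in (113073567 to 113074105) had a fold enrichment of 11.1 and was the 1 inner POLR2A peak that overlapped H3K4me3 (7.68), with summits 42 bp apart. The peak 137 kb in (113087048 to 113087824, 11.2) contained a POLR1A peak of 201 bp (6.76) with summits 90 bp apart and no H3K4me3. This inner POLR1A value was above that at the promoter (6.07), and its −log10 q of 5.95 kept it under the same minimum. The others were at 143 kb (9.73) and 94.4 kb (5.87), the latter within 1 kb of an end of SNORA87, a small nucleolar RNA gene. A further POLR1A peak, 104 kb in, was weak (4.11) and overlapped no other list. No peak of any list lay at the promoters annotated 176 and 179 kb in.

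**Figure D3:**
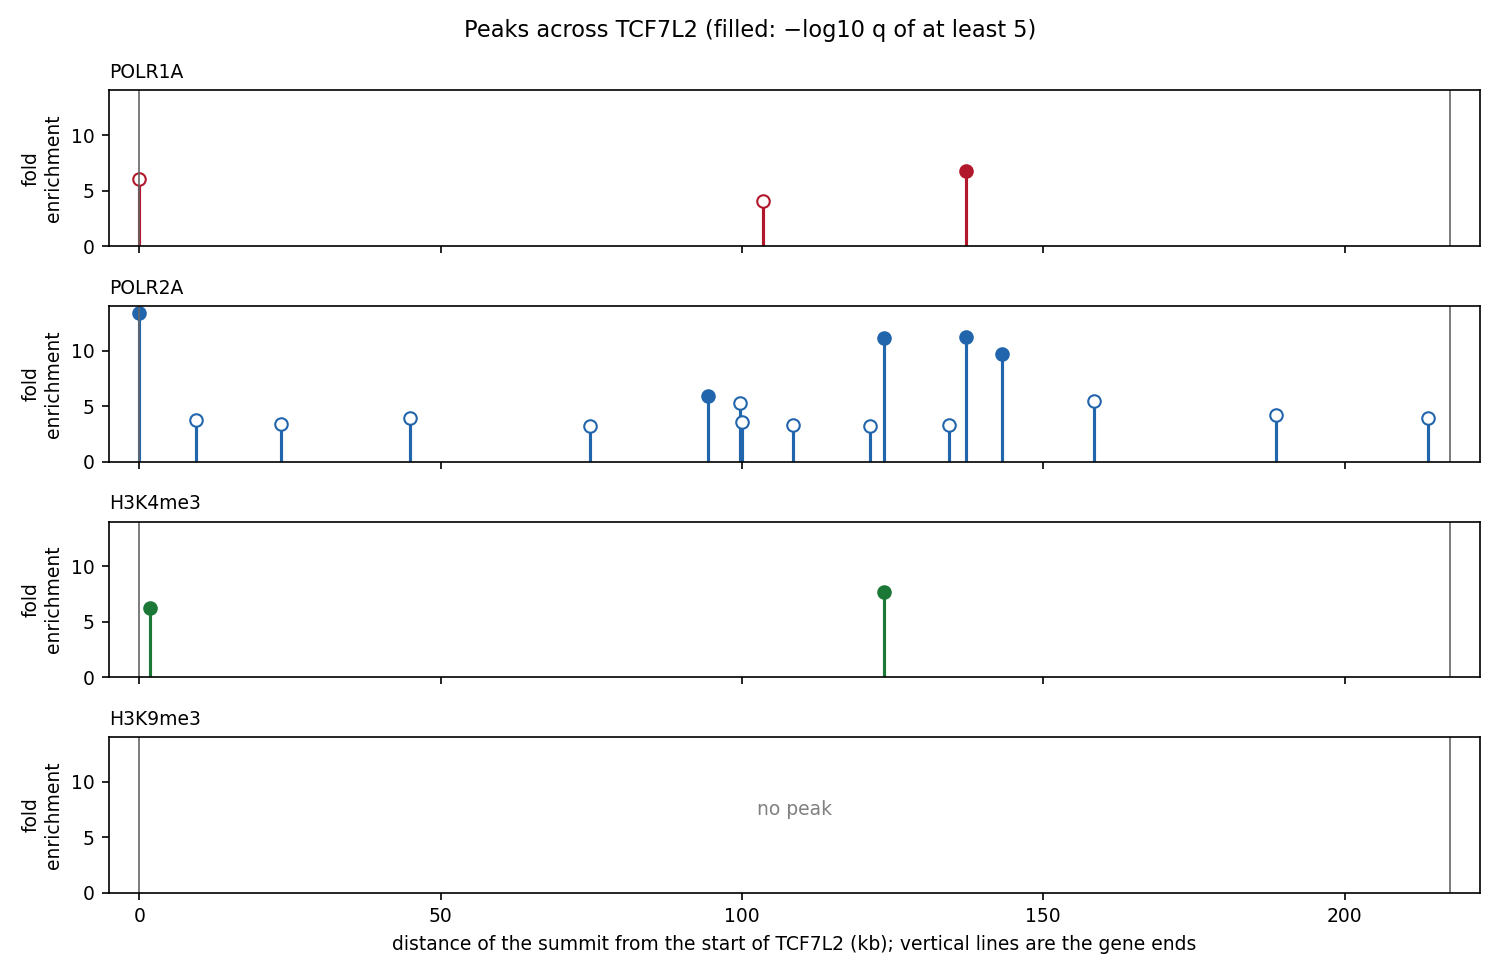
Fold enrichment (linear ratio, y axis) of every peak at its summit's distance in kb from the start of TCF7L2, 1 panel per list, with filled points for a −log10 q of at least 5. The 4 filled inner POLR2A points lie between 94.4 and 143 kb, 1 beside an H3K4me3 peak at 124 kb and 1 beside a POLR1A peak at 137 kb.

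**Figure D4:**
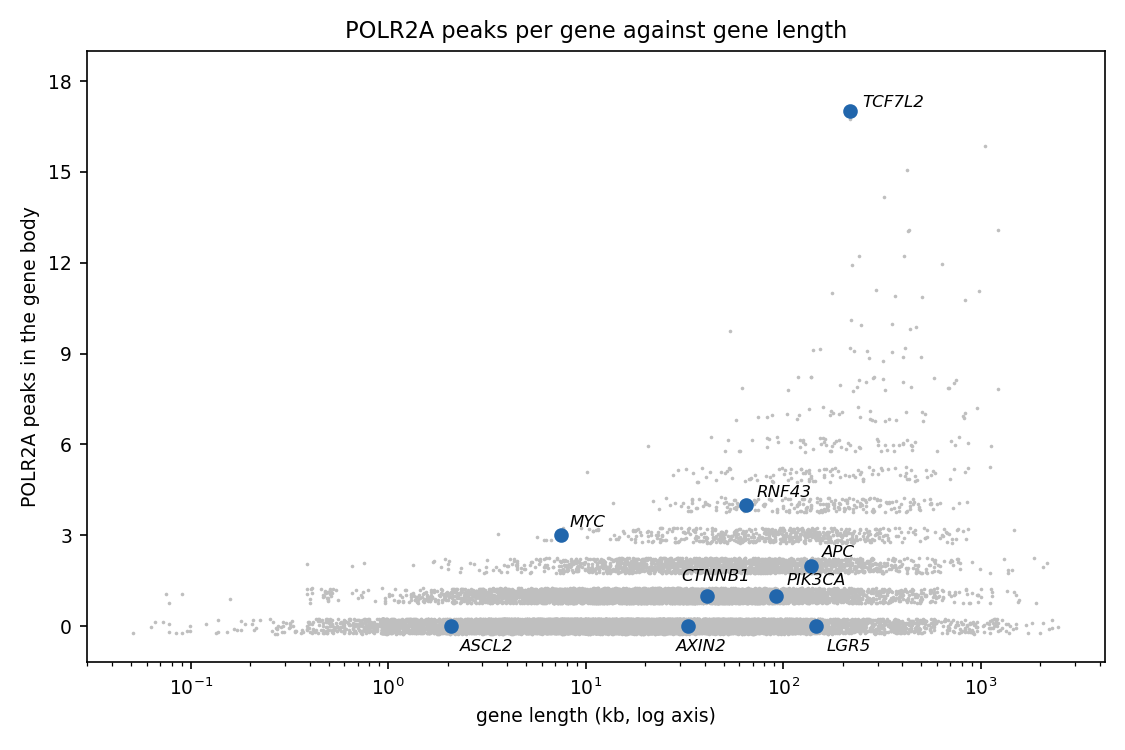
POLR2A peaks in the body (y axis, number) against gene length (kb, log axis) for 19821 protein-coding genes, in grey with small vertical jitter, and the 9 genes in blue without jitter. TCF7L2 lies highest with 17 peaks, RNF43 has 4 in 65 kb and MYC 3 in 7.52 kb.

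The genes with the most similar pattern at their ends were named by the Euclidean distance over the log2 fold enrichment in the 4 lists, with 0 for no peak. They were FAM120AOS and TPI1 for MYC (distances 0.01 and 0.04), CDK5RAP2 and EPB41L2 for CTNNB1 (0.02 each), FAM98B and GDAP1 for APC (0.03 and 0.05), MRPS24 and PTGR2 for RNF43 (0.02 and 0.07), and ARHGEF17 and TTLL6 for PIK3CA (0.01 and 0.03). For TCF7L2 they were CA11 and PTBP1 (0.08 and 0.10), which also have POLR1A, at 5.9 and 5.76.

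Other genes of the pathway were taken in lists by role. Genes of the destruction complex and its regulators had POLR1A at an end in 8 of 16 cases (50%, against 11.2% of protein-coding genes), POLR2A in 12 (75%, against 41.3%) and H3K4me3 in 15 (93.8%, against 54.6%). The 8 were GSK3B (POLR1A 8.95), which encodes the kinase that phosphorylates beta-catenin, BTRC (8.64) and FBXW11 (5.91), the ubiquitin ligase subunits that recognise it, the scaffold gene AXIN1 (8.07), the casein kinase genes CSNK1A1 (7.08) and CSNK1D (4.99), PPP2R1A (6.56), a phosphatase subunit, and GSK3A (6.34). Their median of 6.82 compares with 6.08 over all genes with POLR1A at an end. APC, by contrast, had no POLR1A, and AXIN2 neither polymerase. With a minimum −log10 q of 5 the list held POLR1A in 6 of 16 genes, and all protein-coding genes in 5.36%. Of the 2213 protein-coding genes with POLR1A at an end, 1913 also had POLR2A and H3K4me3 there, without H3K9me3. Here and in the lists below, a list rich in POLR2A is thus set against a background with less of it. POLR2A was at an end of 8192 protein-coding genes, and the 1913 alone are a larger share of these than 11.2%. POLR1A shares of the lists among their genes with POLR2A were not computed. A share above 11.2% is therefore not read as a trait of a list. The highest POLR2A values were at CSNK1A1 (23.3), PPP2R1A (17.8) and GSK3B (17.1). The peaks of both polymerases lay within 1 kb of an end of another gene at CSNK1A1 (ARHGEF37), GSK3B (GSK3B-DT) and CSNK1D (LOC124904089), so they need not belong to these genes.

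Ligands and secreted regulators had POLR1A at 0 of 35 genes (against 11.2% of protein-coding genes), POLR2A at 6 (17.1%, against 41.3%) and H3K4me3 at 9 (25.7%, against 54.6%), all below the background. H3K9me3 was at 2 of them (5.71%, against 2.70%), a count too small to read as a difference. With a window of 500 bp, a minimum −log10 q of 5, lists of equal length or summits, it was at 1. In the body it was in 4 (11.4%, against 13.6%), and the other colorectal cancer drivers had a higher share at an end (3 of 33, 9.09%). The 2 ligand genes with H3K9me3 at an end were WNT7A (6.74) and WNT2 (5.19), and WNT7A had H3K4me3 (6.44) at its opposite end. Those with POLR2A were led by the inhibitors DKK1 (9.92) and DKK4 (9.24) and by PORCN, which encodes the enzyme that acylates Wnt proteins. The peaks at DKK4 and PORCN lay outside the gene bodies, so they need not belong to these genes. Receptors and membrane regulators had POLR2A in 13 of 24 cases (54.2%, against 41.3% of protein-coding genes) and H3K4me3 in 18 (75%, against 54.6%), led for POLR2A by the receptor gene FZD1 (14.7), ZNRF3 (9.45), the relative of RNF43, and KREMEN1 (8.58). This KREMEN1 peak lay outside the gene body, where the highest value was 2.77. POLR1A was at KREMEN2 (5.3) and FZD1 (4.31), or 8.33% against 11.2%, and the KREMEN2 peak lay within 1 kb of an end of PAQR4, so it need not belong to KREMEN2. LGR4, a relative of LGR5, had POLR2A and the highest H3K4me3 value of that list, 18.

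Nuclear partners of beta-catenin had POLR2A in 10 of 17 cases (58.8%, against 41.3% of protein-coding genes) and POLR1A in 3 (17.6%, against 11.2%). The latter were EP300 (9.11), an acetyltransferase gene, CTNNBIP1 (8.5), an inhibitor of the contact with TCF factors, and TLE1 (5.83), a corepressor, with an end of MIR1281 within 1 kb of the peak at EP300 and of TLE1-DT at TLE1. CTNNBIP1 (21), EP300 (19.9) and CHD8 (18.5) had the highest POLR2A values. The other TCF and LEF genes, TCF7, TCF7L1 and LEF1, had neither polymerase nor H3K4me3 at an end, unlike TCF7L2, although TCF7 held 4 POLR2A and 3 H3K4me3 peaks in its body. Further Wnt targets of the intestine had POLR2A in 9 of 20 cases, with SOX9 (16.2), FOSL1 (13.4) and LRIG1 (12.3) highest, and POLR1A at EPHB3 (4.55), on a peak near an end of LOC124909469. Their share with POLR2A (45%) is close to the background of 41.3%. H3K4me3 was at 13 of 20 (65%, against 54.6%) and POLR1A at 1 (5%, against 11.2%).

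Other colorectal cancer drivers had POLR2A in 28 of 33 cases (84.8%, against 41.3% of protein-coding genes), H3K4me3 in 30 (90.9%, against 54.6%) and POLR1A in 6 (18.2%, against 11.2%). The highest POLR2A values were at ATM (20.1), a DNA damage kinase gene, TGFBR2 (17.2) and ERBB3 (17.2). At ERBB3 this peak lay within 1 kb of an end of PA2G4, while the POLR2A peaks at the other end of ERBB3 reached 6.46. Those with POLR1A included ATM (8.4), ERBB3 (6.95), a receptor kinase gene, KMT2D (5.67) and FBXW7 (4.78). All 4 of these POLR1A peaks lay within 1 kb of an end of another gene (NPAT, PA2G4, PRKAG1 and MIR4453HG) and need not belong to the drivers. ATM also had H3K9me3 (5.82), and the peaks of both polymerases and of H3K9me3 there lay within 1 kb of an end of NPAT. ATM thus carried all 4 targets at an end, as did 1.01% of protein-coding genes and none of the 9.

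**Figure D5:**
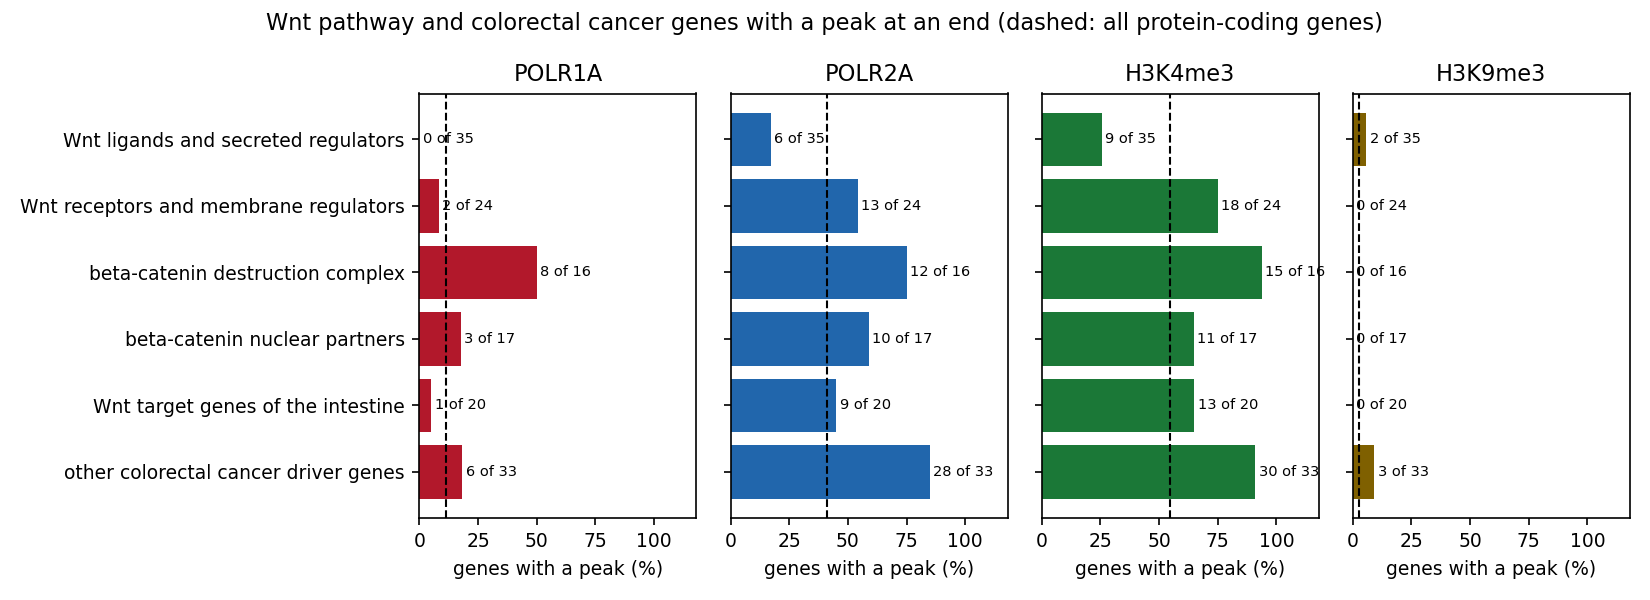
Share of genes (percent, x axis) with a peak within 1 kb of an end in 6 lists of related genes, 1 panel per peak list, with the number of genes beside each bar. Dashed lines are the shares of all protein-coding genes; POLR1A reaches 8 of 16 genes of the destruction complex and 0 of 35 ligands and secreted regulators.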

How the data were processed

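Peak lists of 4 targets in HCT116 cells were used, in the narrowPeak layout; per the file names they were called with MACS2. The lists of POLR1A, POLR2A and H3K9me3 name no replicate, so whether the authors pooled the samples is not given in the sources used here, nor are the caller's settings and control. The labels' protocols give 100000 to 200000 cells per replicate. The fold enrichment (a linear ratio), the −log10 q values, the integer score and the summit offset are as the authors deposited them; the lowest −log10 q of each list was just above 1. The score entered no result. The submitters' processing notes name GRCh38 and hg38.

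Genes came from a RefSeq table of GRCh38.p14 with 59792 entries; 718 entries listed out of coordinate order on their chromosome were left out, as their positions may refer to other scaffolds. Strand was known for 5 of the 9 genes, from a table of promoter sequences (300 bases) that was matched by symbol, and the 250 bases before the start were searched for motifs; MYC, AXIN2, LGR5 and ASCL2 were not matched there. A single shared base counted as overlap. Counting was tested on simulated peaks. Python 3.11.15 and pandas 2.3.3 were used.

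The genes and lists were chosen with earlier results of these data known. Named were all 9 genes, in each of 6 lists up to 3 genes by POLR2A fold enrichment and up to 4 by POLR1A or H3K9me3, all 8 being given for the destruction complex, and 2 genes most like each member; other names were added after values were seen, and some genes of the driver list are not reported here. Alternatives were windows of 500 bp and 2 kb, a −log10 q of at least 5, lists of equal length, summits in place of overlap, and bodies without 1 kb at either end. Peak lists give no depth.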

Additional observations from a re-analysis of the deposited data

How the results depend on the processing

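Counts of the 9 genes moved by over 1.5 times in 3 of 20 recomputed values at gene ends and 3 of 16 in gene bodies. With lists of equal length (3812 peaks each), POLR2A was at an end of 2 genes, TCF7L2 and RNF43, and in the body of the same 2. In that setting H3K4me3 was at an end of 3 genes and in the body of 3, namely CTNNB1, APC and RNF43. With a minimum −log10 q of 5, POLR1A was at an end of 0 genes. With bodies taken without 1 kb at either end, POLR2A was in 3 genes, APC, TCF7L2 and RNF43. The others stayed within 1.5 times, but the genes with H3K4me3 at an end changed with the window. With 2 kb they were 8 of the 9, as AXIN2 and LGR5 joined (against 56.7% of protein-coding genes). With 500 bp, or with summits in place of overlap, TCF7L2 dropped out and 5 remained. H3K9me3 was at 0 genes in every setting run. The highest fold enrichment at the ends kept its value in 54 of 55 cases; with a window of 500 bp H3K4me3 at MYC was 2.26 in place of 5.72. In a further 10 cases no peak remained and there was no value. Of 120 counts for the related lists, in settings chosen after seeing the data, 24 moved by over 1.5 times, 13 of them with lists of equal length, where POLR2A was at 0 of 35 ligand genes and 1 of 24 receptor genes. POLR1A peaks with a −log10 q of 5 or more were at 0 receptor genes, 0 intestinal target genes and 3 driver genes. No paired analysis was possible because the peak lists hold no values for single replicates. Depth is unknown, so the absence of a peak at an end of AXIN2, LGR5 or ASCL2 says only that none was listed within 1 kb.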

Other observations

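POLR2A peaks were also frequent beside TCF7L2. VTI1A, which lies before it on chromosome 10 (112446988 to 112855368) and encodes a vesicle transport protein, held 12 POLR2A peaks in 408 kb, of which 9 reached a −log10 q of 5, and 1 POLR1A peak. No protein-coding gene held more POLR2A peaks of that strength, and TCF7L2 held 5. The 500 kb before TCF7L2 held 12 POLR2A peaks, or 2.4 per 100 kb, and the 500 kb after it 3, or 0.6 per 100 kb, against 7.82 within the gene. Most of VTI1A lies in the 500 kb before TCF7L2, so the counts there and in VTI1A are not separate observations. Among 309 intervals of 10 Mb with POLR2A peaks, the one that holds TCF7L2 ranked 35 by number of peaks (117, median 54) and 12 by number with a −log10 q under 2 (32, median 14). The part of such regional differences in the count at TCF7L2 was not tested.

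Within the related lists, ZNRF3, the relative of RNF43, held the most POLR2A peaks in its body, 7, and SMAD3, EGFR, KMT2C and CD44 held 6 each. These were named after their values were seen.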
